A study of Rattus norvegicus with 3 samples.

Results

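The genes described here encode the TGF-beta, BMP, Wnt and Notch signalling pathways, as read in the medullary thick ascending limb (mTAL) of the rat kidney. They were chosen by name, from a list of 40 ligands, receptors, signal carriers, inhibitors and target genes, and a probe set counted for a gene when that gene was the only symbol the platform annotation gave it. Of the 40 genes, 39 had such a probe set, out of 14217 genes measured in all, and 1 (Tgfbr2) is not analysed here. Of several probe sets of a gene, the brightest by mean log2 signal was used.

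All 3 arrays belong to 1 group: mTAL from male Sprague-Dawley rats 7 to 8 weeks old, with no untreated or other tissue beside it. Heparin (250 u) and furosemide (1 mg), a diuretic that acts on this segment, were given to every rat 30 min before death, and the segment was freed from the outer medulla with collagenase and hyaluronidase for 60 min and collected on 33.3% Percoll. The labels number the samples 1 to 3 and do not say whether they came from separate rats or pools, so the spread between them may be technical. RNA comes from a cell preparation, in which fewer cells of a type and less RNA per cell cannot be told apart.

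TGF-beta and BMP ligands bind paired type I and type II serine/threonine kinase receptors, which phosphorylate receptor-regulated Smads that enter the nucleus with Smad4. Wnt ligands bind Frizzled receptors with Lrp5 or Lrp6 and stop a complex of Apc, Axin and Gsk3b from marking beta-catenin for destruction, so that beta-catenin can act with Tcf/Lef factors. Notch receptors are cut when a Jagged or Delta ligand on a neighbouring cell binds them, and the freed domain turns Rbpj into an activator of Hes and Hey genes. In the kidney, these pathways are known for nephron patterning and for their part in fibrosis after injury.

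Values are probe set signals on the linear scale of the deposited table, with mean ± SD over the 3 arrays (n = 3 throughout). A gene was called detected when its log2 signal lay above a cutoff, the 95th percentile of 79 genes known from other tissues on the same array, by limma (one-sided, Benjamini-Hochberg adjusted p under 0.05 over all genes). The cutoff was a signal of 464, 415 and 435 on replicates 1, 2 and 3. Signals of different probe sets are not on one scale of abundance, so no order of abundance between genes is drawn from them.

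On this basis 26 of the 39 members were detected, a share to be read against the 51.6% of all genes detected (7332 of 14217). A further gene, Id3, was above the cutoff on every array without passing the test, Sfrp1 was above it on replicate 3 only, and 11 members were above it on no array. The median member lay 1.49 log2 units above the cutoff and the median gene 0.60. With the cutoff at the 99th percentile, which falls between Cela1 and the much brighter Myh1 of the other-tissue list, 2 members and 1073 of all genes were detected. By pathway, 17 of 24 TGF-beta and BMP genes, 6 of 10 Wnt genes and 3 of 5 Notch genes were detected.

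**Figure D1:**
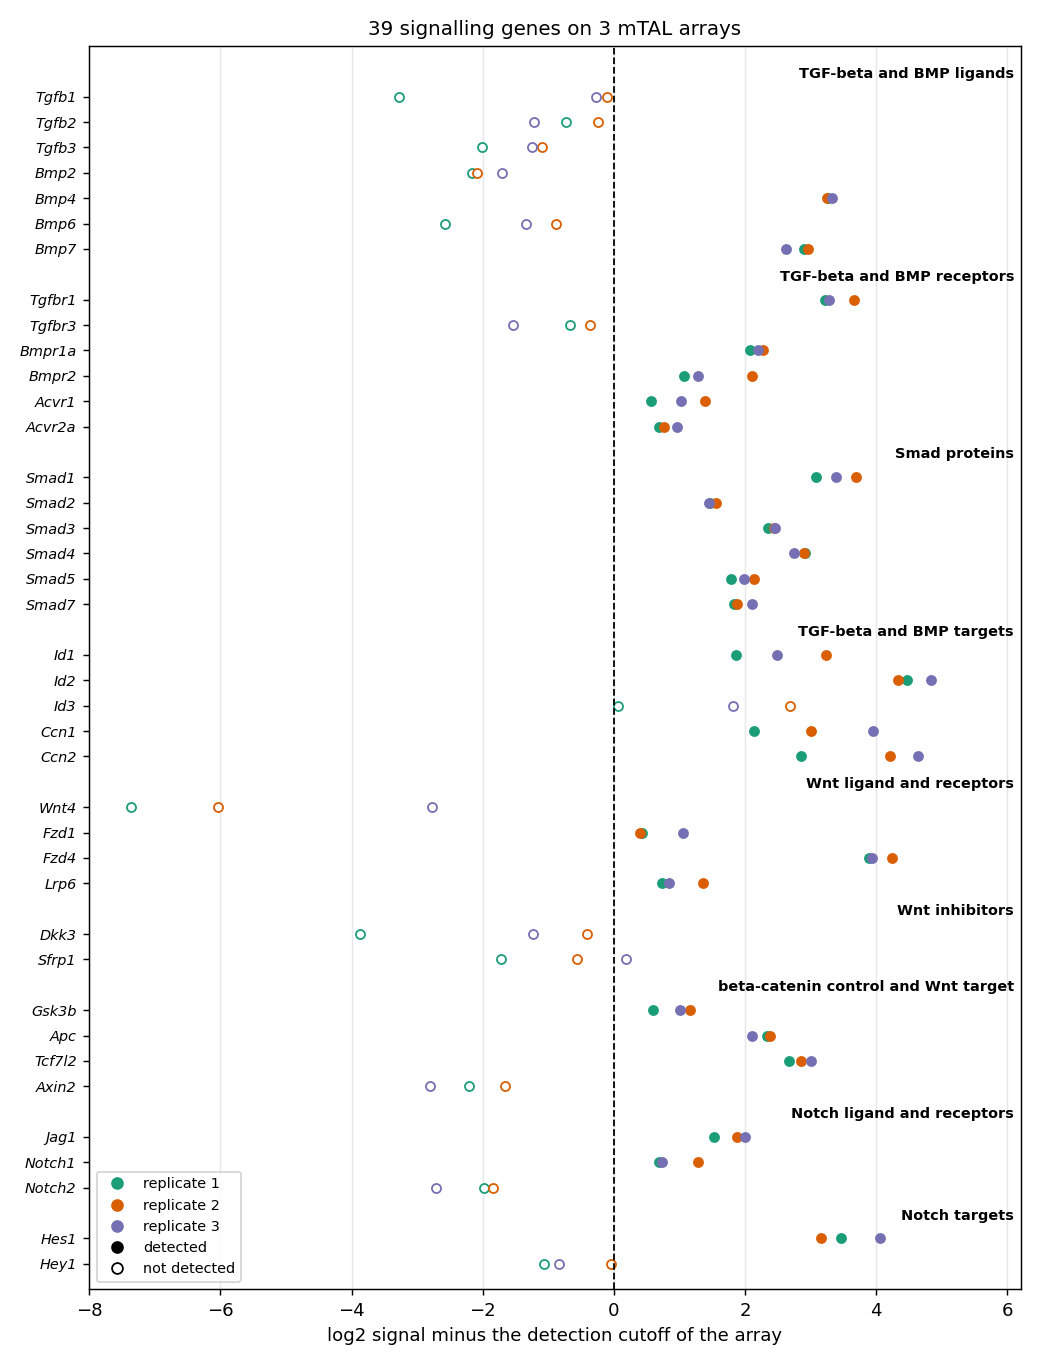
Log2 signal minus the detection cutoff of the array (horizontal axis; dashed line at the cutoff) for the 39 members, grouped by role, with 1 point per array coloured by replicate. Filled points mark the 26 detected genes. All 6 listed Smad genes are filled, and 5 of the 7 listed ligands of the TGF-beta and BMP families lie left of the line on every array.

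The upstream sequences of 4 textbook target genes are shown: Hes1 was detected and Axin2 was not, and Ccn1 and Ccn2 placed the 3 arrays in the same order. They are the 250 bases before the start site in RefSeq's promoter table (build GRCr8, written 5′ to 3′ on the strand of the gene). Of the 40 listed genes, 33 had an entry of this kind, Tgfbr2 among them. Capitals mark the Rbpj core TGGGAA in Hes1, the Tcf/Lef core CTTTGAT in Axin2, and the core GGAATG of TEAD factors, the partners of Yap and Taz, in Ccn1 and Ccn2, each searched on both strands.
Hes1 upstream (chr11:84213046-84213295, minus strand): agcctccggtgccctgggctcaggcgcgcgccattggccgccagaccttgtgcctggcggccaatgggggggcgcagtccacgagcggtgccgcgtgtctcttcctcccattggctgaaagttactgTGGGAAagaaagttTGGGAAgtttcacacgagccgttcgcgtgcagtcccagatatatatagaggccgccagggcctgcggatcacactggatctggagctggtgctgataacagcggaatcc
Axin2 upstream (chr10:94398535-94398784, plus strand): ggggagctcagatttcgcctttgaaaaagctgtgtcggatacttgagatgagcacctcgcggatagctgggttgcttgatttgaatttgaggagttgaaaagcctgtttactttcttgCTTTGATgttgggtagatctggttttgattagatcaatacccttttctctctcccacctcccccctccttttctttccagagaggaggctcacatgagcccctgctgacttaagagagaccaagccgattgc
Ccn1 upstream (chr2:237225690-237225939, minus strand): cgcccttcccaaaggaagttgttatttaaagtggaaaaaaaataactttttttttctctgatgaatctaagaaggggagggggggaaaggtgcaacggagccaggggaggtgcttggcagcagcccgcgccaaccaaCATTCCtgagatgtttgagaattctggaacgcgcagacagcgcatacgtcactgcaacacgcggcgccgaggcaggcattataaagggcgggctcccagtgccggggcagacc
Ccn2 upstream (chr1:22624615-22624864, minus strand): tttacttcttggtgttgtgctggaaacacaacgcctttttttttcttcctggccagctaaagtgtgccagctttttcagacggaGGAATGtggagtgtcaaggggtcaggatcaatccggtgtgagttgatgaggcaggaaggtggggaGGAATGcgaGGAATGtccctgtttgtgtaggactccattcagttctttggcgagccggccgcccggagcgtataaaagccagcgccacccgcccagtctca

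Hes1 held 2 Rbpj cores, whose first bases lay at -123 and -109 from the start site. Of 27457 RefSeq windows of this length, 21.6% held at least 1 such core and 2.61% at least 2, and Hes1 was the 1 member with 2. Ccn2 held 3 TEAD cores, at -166, -101 and -92, and Ccn1 held 1, at -113; 11.8% of all windows held at least 1 and 0.911% at least 2. The single Tcf/Lef core of Axin2 lay at -132, and 3.18% of windows held one. Over the 33 listed genes with a window, TGGGAA was found in 4, CTTTGAT in 2 and GGAATG in 3. The short Smad box AGAC was found in 26 members and 83.9% of all windows, the GC-rich core GGCGCC of Smad1 and Smad5 in 8 members and 9.24% of all windows, and the CArG box of serum response factor in 0 members and 1.5% of all windows. The 8 windows with GGCGCC held 54.0% (Ccn1) to 86.4% (Wnt4) of G and C, against a median of 52.0% over all windows. The part of base composition in that count was not tested. No match overlapped another in the 4 windows shown, and a match of letters is a description, not a binding site.

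Among the ligands, only Bmp4 and Bmp7 were detected. Bmp4 had signals of 4463, 3957 and 4378 on replicates 1, 2 and 3, and lay 3.28 ± 0.09 (SE) log2 units above the cutoff (limma adjusted p = 0.000108). Bmp7, a ligand that is needed for kidney development and is known to oppose TGF-beta, had signals of 3472, 3221 and 2670 and lay 2.83 ± 0.12 (SE) above it (limma adjusted p = 0.000182). Both were far above the cutoff on all arrays, and neither differed by 1 log2 unit between them.

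The 3 TGF-beta ligands were not detected. Tgfb1, the ligand most tied to fibrosis, had signals of 47.7, 387 and 360, all 3 under the cutoff. Tgfb2 had signals of 280, 351 and 186 and Tgfb3 of 115, 195 and 182. Bmp2 (111 ± 18.9) and Bmp6 (158 ± 74.0), the latter a ligand that signals iron status in the liver, were also under the cutoff on every array. The limma adjusted p was 1 for each of the 5; a gene under the cutoff may still be expressed at a level that it cannot show.

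Receptors for both branches were detected. Of the listed TGF-beta receptors this holds for Tgfbr1 alone: Tgfbr2 is not analysed here, and Tgfbr3 was under the cutoff. Tgfbr1, the type I receptor for TGF-beta, had signals of 4333, 5228 and 4218 (3.39 ± 0.14 (SE) log2 units above the cutoff, limma adjusted p = 0.000165). Bmpr1a, a type I receptor for BMPs, had signals of 1944, 1997 and 1995 and an SD of 0.02 log2 units, the lowest of the members above the cutoff. Its 3 arrays were all but level. Acvr2a, a type II receptor for activins and BMPs, had signals of 749, 704 and 843 (limma adjusted p = 0.0037).

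Bmpr2 and Acvr1 were detected with a wider spread. Bmpr2, the BMP type II receptor, had signals of 971, 1793 and 1052, highest on replicate 2 (limma adjusted p = 0.00813). Acvr1, a type I receptor, had signals of 688, 1085 and 881, again highest on replicate 2 (limma adjusted p = 0.0125; 0.0612 without replicate 3, and so no longer called). Tgfbr3, the co-receptor betaglycan, was under the cutoff with signals of 291, 324 and 149. Each detected receptor was above the cutoff on all 3 arrays.

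All 6 listed Smad genes were detected. Beside them, Smad6 (769, 700 and 844) was detected and Smad9 (51.8, 277 and 65.0) was not, both named after their values were seen. Smad1 and Smad5, which carry BMP signals, had signals of 3927, 5390 and 4539, and of 1603, 1833 and 1726. Smad2 and Smad3, which carry TGF-beta and activin signals, had signals of 1283, 1225 and 1183, and of 2373, 2256 and 2379. The shared partner Smad4 had signals of 3486, 3112 and 2912, and the inhibitory Smad7, itself induced by TGF-beta, of 1655, 1529 and 1871. The 6 genes lay 1.49 (Smad2) to 3.39 (Smad1) log2 units above the cutoff, with limma adjusted p from 0.000133 to 0.000435. Their median SD was 0.11 log2 units, against 0.16 for all 8129 genes whose mean exceeded the mean cutoff, each by its brightest probe set. Smad1, at 0.23, was the 1 of the 6 above 0.16. Second probe sets of Smad1, Smad4 and Smad5, also above the cutoff on all arrays, had SDs of 0.37, 0.43 and 0.33. The lower median is thus that of the brightest probe sets.

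Among the members above the cutoff, the 4 with the largest SD between arrays (0.61 to 1.26 log2 units) were target genes of TGF-beta and BMP signalling. Some genes under the cutoff, such as Wnt4 (2.33), spread more. Id1 and Id3, inhibitors of basic helix-loop-helix factors and classic BMP targets, were highest on replicate 2 and lowest on replicate 1. Id1 had signals of 1693, 3925 and 2433 (2.53 ± 0.32 (SE) log2 units above the cutoff, limma adjusted p = 0.00303). Id3 had signals of 483, 2667 and 1522, and its value on replicate 1 was close to the cutoff of 464. It lay 1.52 ± 0.60 (SE) above the cutoff and missed the threshold (limma adjusted p = 0.0721), but passed it without replicate 1 (limma adjusted p = 0.0108). With the arrays centred on their median gene, replicate 2 exceeded replicate 1 by 2.18-fold for Id1 and 5.19-fold for Id3.

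Ccn1 and Ccn2, secreted matricellular proteins induced by TGF-beta and by Yap with TEAD factors, were highest on replicate 3. Ccn1 had signals of 2040, 3325 and 6749 (limma adjusted p = 0.00386), and Ccn2 of 3357, 7660 and 10791 (limma adjusted p = 0.00195). Both were lowest on replicate 1, and replicate 3 exceeded it by 3.05-fold for Ccn1 and 2.96-fold for Ccn2 after centring. Id2, a further inhibitor of helix-loop-helix factors, was steadier, with signals of 10284, 8386 and 12422 (4.55 ± 0.15 (SE) log2 units above the cutoff, limma adjusted p = 0.000122). Its lowest value was on replicate 2, where Id1 and Id3 had their highest.

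Of the 27 members whose mean over the arrays exceeded the mean cutoff, 4 (Id1, Id3, Ccn1 and Ccn2) differed by more than 1 log2 unit, or 2-fold, between the highest and the lowest array. Over all 8129 such genes 365 did, or 4.49%. These 4 are 4 of the 5 members listed as TGF-beta and BMP targets, and none of the other 23 reached that range. The nearest of the 23 was Hes1, at 0.94 log2 units. Of 20 further TGF-beta and BMP genes above the mean cutoff, read below, 4 passed 1 log2 unit. Skil, Smad6 and Id4 of that list differed by 0.25, 0.24 and 0.45, Id4 being named after its values were seen. Smad7, also induced by TGF-beta but listed with the Smad proteins, differed by 0.26 log2 units. Without replicate 1 none of Id1, Id3, Ccn1 and Ccn2 passed 1 log2 unit, so the count rests on that array. Leaving out an array cannot widen a range, and these genes did not all become level. Replicate 3 minus replicate 2 was 0.99 log2 units for Ccn1 and -0.84 for Id3. With the mean over all probe sets of a gene, dim ones included, the count was 8. For the median of the 27 members, the highest array exceeded the lowest by 0.38 log2 units, against 0.33 for all genes above the cutoff.

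**Figure D2:**
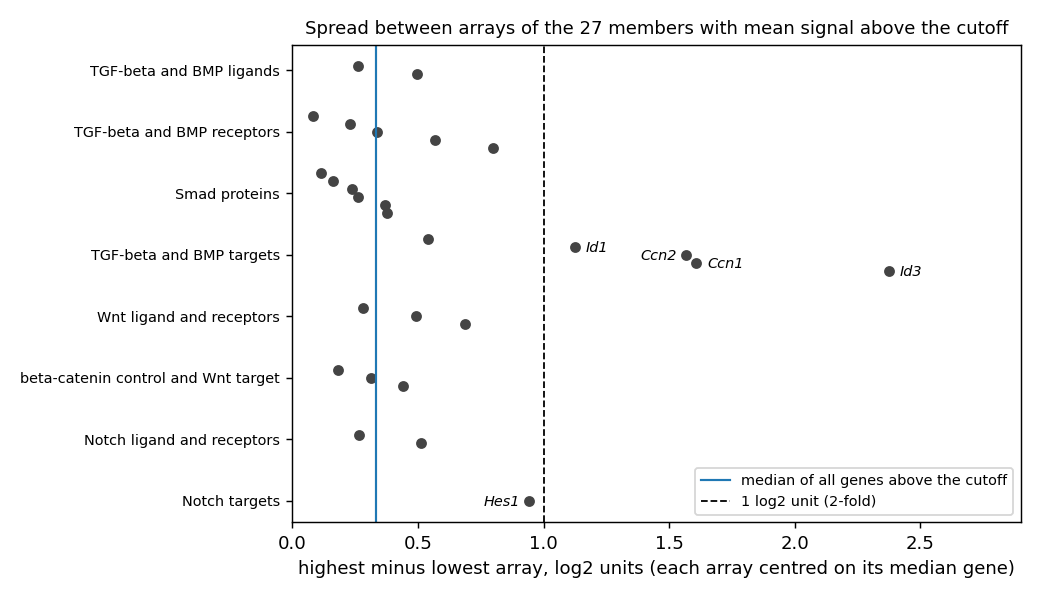
Highest minus lowest array in log2 units (horizontal axis), after centring each array by its median gene, for the 27 members whose mean lies above the cutoff, 1 point per gene and grouped by role. The dashed line is 1 log2 unit and the blue line the median of all genes above the cutoff (0.33). Id1, Id3, Ccn1 and Ccn2 lie right of the dashed line, and the 6 Smad genes lie between 0.12 and 0.38.

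Markers of other cells moved between the same arrays. Relative to the mean of the other arrays, replicate 1 was low in proximal tubule (median -2.91 log2 units over 25 genes), fibroblast and mural cell (-1.64, 15 genes), principal cell (-1.09, 12 genes), thin limb (-1.04, 7 genes) and endothelial markers (-0.90, 17 genes). The summed signal of the endothelial markers was 19768, 36429 and 31949 on replicates 1, 2 and 3, with 11, 17 and 13 of 17 above the cutoff, and 13 of them were highest on replicate 2, as Id1 and Id3 were. That of the thin limb markers was 29251, 76637 and 44230, with 5, 6 and 6 of 7 above the cutoff. Of these 7 markers, 6 were highest on replicate 2, again as Id1 and Id3 were. The fibroblast and mural cell markers summed to 3208, 7043 and 7331, with 2, 7 and 7 of 15 above it. No marker was listed at 0.

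Replicate 3 stood out in other lists. Immediate early and heat shock genes summed to 256407, 303122 and 389938, and 20 of 24 were highest on replicate 3, as Ccn1 and Ccn2 were. The proximal tubule markers summed to 7676, 29691 and 97573, with 2, 12 and 16 of 25 above the cutoff and 24 highest on replicate 3. The principal cell markers summed to 17143, 22705 and 33360, with 6, 8 and 10 of 12 above it. By contrast the thick ascending limb markers were above the cutoff on all arrays (14 of 14), summed to 271866, 264606 and 248143, and deviated by 0.20, -0.05 and -0.12 log2 units. The remaining lists gave summed signals of 753, 1115 and 1199 (distal convoluted and connecting tubule, 7 genes), 1559, 3325 and 3894 (intercalated cell, 7), 3375, 4556 and 4446 (podocyte, 7), 26761, 31275 and 33108 (leukocyte, 18) and 1687, 2172 and 6783 (red blood cell, 5). In that order, their median deviations on replicate 1 were -0.30, -0.60, 0.45, -0.06 and -0.175 log2 units. The podocyte median was thus not low on replicate 1, and the leukocyte median was nearly level. In each of these lists at most 4 genes had a mean above the mean cutoff. As a sign of RNA quality, 3'-end over 5'-end control signals stood at a log2 ratio of 1.48, 1.18 and 1.95 for Actb and 0.51, 0.43 and 0.60 for Gapdh. The part of these markers, or of RNA quality, in the spread of the 4 targets was not tested.

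**Figure D3:**
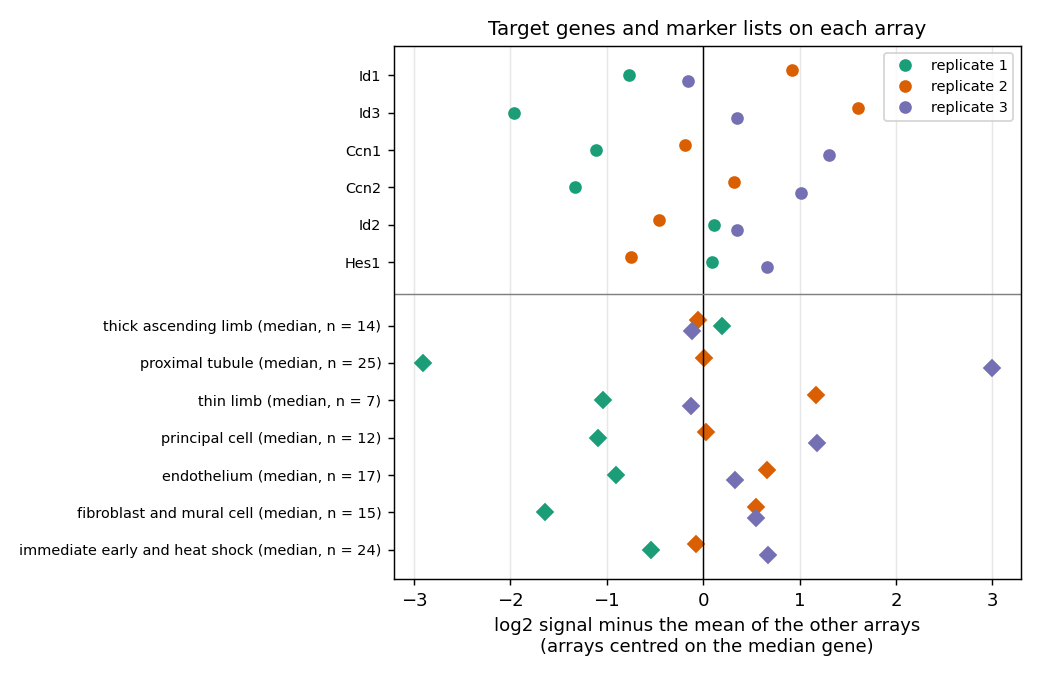
Log2 signal on each array minus the mean of the other arrays (horizontal axis), with arrays centred on their median gene, for 6 target genes (circles) and for the medians of 7 marker lists (diamonds), coloured by replicate. Id1, Id3, Ccn1 and Ccn2 are lowest on replicate 1, as are the medians of all lists shown except the thick ascending limb; Id1 and Id3 are highest on replicate 2, Ccn1 and Ccn2 on replicate 3.

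Wnt receptors were detected, whereas the listed ligand and inhibitors were not. Fzd4, a Frizzled receptor also known for its ligand Norrin, had signals of 6876, 7885 and 6620 (4.02 ± 0.12 (SE) log2 units above the cutoff, limma adjusted p = 0.000118). The co-receptor Lrp6 had signals of 767, 1070 and 775 (limma adjusted p = 0.00875). Fzd1 had signals of 626, 548 and 901 and lay nearest the cutoff of the detected members, 0.63 ± 0.19 (SE) above it (limma adjusted p = 0.035). Its call was lost when any array was left out, with adjusted p = 0.07, 0.0732 and 0.0774 without replicates 1, 2 and 3.

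Wnt4, a ligand that drives the first steps of tubule formation in the embryo, had signals of 2.80, 6.35 and 63.4, all far under the cutoff. The secreted inhibitors were under it as well. Dkk3, a member of the Dickkopf family, had signals of 31.5, 312 and 184. Sfrp1, which binds Wnt proteins, had signals of 141, 280 and 494, of which the last was above the cutoff of replicate 3 (limma adjusted p = 1 for all 3 genes). Under the cutoff, the order of the arrays is not read.

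Apc and Gsk3b, which hold beta-catenin in check, were detected, with SDs of 0.16 and 0.21 log2 units. Apc, the scaffold of the destruction complex, had signals of 2336, 2151 and 1870 (limma adjusted p = 0.000235), and the kinase Gsk3b of 701, 925 and 871 (limma adjusted p = 0.00744). Tcf7l2, the DNA-binding partner of beta-catenin, had signals of 2940, 3004 and 3473 (2.84 ± 0.12 (SE) log2 units above the cutoff, limma adjusted p = 0.000169). Axin2, the common readout of beta-catenin activity whose upstream window holds the Tcf/Lef core, was under the cutoff on every array, with signals of 100, 131 and 62.1 (limma adjusted p = 1).

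In the Notch pathway 1 receptor, the ligand and 1 target were detected. Jag1, a ligand carried on the cell surface, had signals of 1335, 1531 and 1739 (1.80 ± 0.14 (SE) log2 units above the cutoff, limma adjusted p = 0.00079). Notch1 had signals of 746, 1014 and 726 (limma adjusted p = 0.0104), and Notch2, the receptor needed for the proximal nephron in development, of 118, 116 and 66.4, under the cutoff on all arrays (limma adjusted p = 1). Jag1 and Notch1 were above the cutoff on all 3 arrays and differed by less than 1 log2 unit between them.

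Hes1, the repressor whose upstream window holds 2 Rbpj cores, had signals of 5111, 3691 and 7236. It lay 3.56 ± 0.22 (SE) log2 units above the cutoff (limma adjusted p = 0.000435), with replicate 3 highest and replicate 2 lowest, 1.92-fold apart after centring. Hey1, the other target, was under the cutoff with signals of 222, 402 and 242 (limma adjusted p = 1).

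The annotation gave 71 probe sets to the 39 genes: 20 genes had 1 and 19 had several, up to 5 for Tcf7l2. Of the 19, 5 (Fzd4, Id2, Notch1, Smad1 and Smad4) had every probe set above the mean cutoff, 8 had some above it, and 6 had none. Of Apc's 3 probe sets, the brightest had a mean of 2119 and the others of 358 and 26.3. Smad3 had 2373, 2256 and 2379 for one probe set and 102, 14.4 and 35.4 for the other. The second probe set of Tgfbr1 gave 142, 208 and 36.0, and that of Bmpr2 10.2, 60.3 and 13.4, both under the cutoff on every array. With the mean over a gene's probe sets in place of the brightest, the cutoff also moved, being taken from the same means. In this setting 7 members lost their calls (Tgfbr1, Bmpr2, Acvr1, Smad3, Smad7, Apc and Tcf7l2) and Id3 gained one. Id3 has 1 probe set, and its distance above the cutoff went from 1.52 to 1.83 log2 units. Tgfbr1, Bmpr2, Smad3, Smad7 and Apc each had only the brightest probe set above the mean cutoff. A second probe set was above the cutoff on all arrays for Tcf7l2 (487, 594 and 660) and on 2 for Acvr1 (503, 647 and 287).

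Where both probe sets of a gene were above the cutoff, they did not always place the arrays alike. Id2 was highest on replicate 3 with both its probe sets, the second of which was nearly level (3605, 3696 and 3970). Notch1 was highest on replicate 2 with both. So was Smad1 (501, 811 and 544 with the second). Fzd4 was highest on replicate 2 with the first and on replicate 1 with the second (1871, 1365 and 813). Smad4 was highest on replicate 1 with the first and on replicate 2 with the second (1018, 1297 and 713). Id1, Id3, Ccn1, Ccn2 and Hes1 each had 1 probe set, so their spread could not be read on another.

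**Figure D4:**
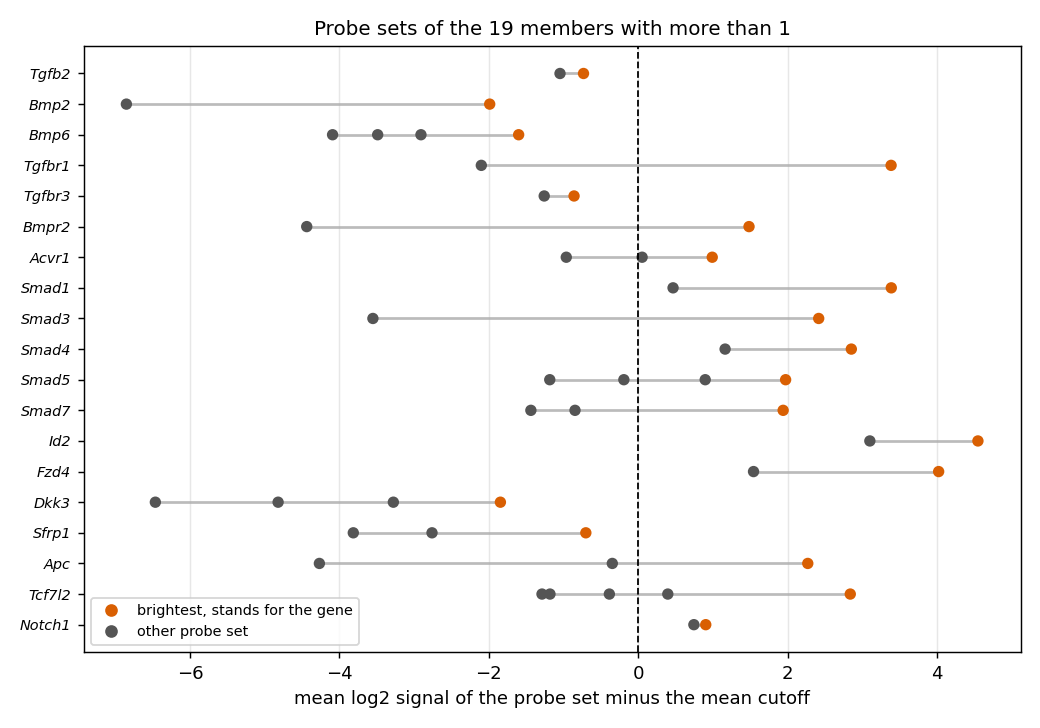
Mean log2 signal of each probe set minus the mean cutoff (horizontal axis; dashed line at the cutoff) for the 19 members with more than 1, with grey lines joining probe sets of a gene. Orange points are the probe sets that stand for the gene; in 8 genes the probe sets lie on both sides of the line, and in 5 all lie above it.

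Other genes of the 3 pathways were read from longer lists. Of 36 further TGF-beta and BMP genes 16 were detected, of 53 further Wnt genes 21, and of 34 further Notch genes 12. These shares of 44.4%, 39.6% and 35.3% stand against 51.6% of all genes. The order turned at lower cutoffs: for the TGF-beta and BMP list at the 90th percentile (66.7% against 63.1%) and the TrpnX control cutoff (86.1% against 78.3%), and for the Wnt list at the latter (81.1%). The lists' median genes lay 0.29, 0.05 and -0.22 log2 units from the cutoff, against 0.60 for all genes.

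Genes of these lists are named for the brightest and dimmest probe sets, which is no order of abundance. The detected TGF-beta and BMP genes with the brightest probe sets were Skil, a repressor of Smad activity (8532, 8191 and 7764), Fstl1 (5330, 8728 and 7525) and Fst, the activin antagonist follistatin (2848, 8418 and 4712). The latter pair, like Id1 and Id3, were highest on replicate 2 and lowest on replicate 1; Fst also stands in the thin limb marker list. The dimmest, far under the cutoff, were those of the type I receptor Acvr1c (5.91 ± 0.751) and the BMP modulator Bmper (11.5 ± 8.29). Of the 20 genes of the list with a mean above the mean cutoff, 4 differed by over 1 log2 unit between arrays. Beside Fst they were Gdf15, a stress-induced cytokine (328, 1041 and 374), Ltbp4, which anchors latent TGF-beta in the matrix (492, 1109 and 786), and Eng, an endothelial co-receptor that also stands in the endothelial marker list (530, 853 and 1165), the latter 3 named after their values were seen.

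In the Wnt list, Ctnnb1, the gene of beta-catenin itself, had signals of 33050, 32754 and 32161 (6.22 ± 0.10 (SE) log2 units above the cutoff, limma adjusted p = 0.000104). Its SD of 0.02 log2 units was as small as that of Bmpr1a. The kinase Csnk1a1, part of the destruction complex (7364, 8583 and 6421), and the corepressor Ctbp1 (5715, 6007 and 6193) are named likewise, and the dimmest, far under the cutoff, were Lgr5 (19.7 ± 21.8), a receptor for R-spondins known from stem cells, and Wnt11 (18.7 ± 11.9). In the Notch list, the gamma-secretase subunits Psenen (9195, 8206 and 9770) and Aph1a (4515, 5086 and 2518) and the factor Hes6 (8042, 6366 and 6991) had the brightest probe sets. Dll1, a Delta ligand (18.4 ± 9.79), and Hes3 (44.1 ± 38.8) had the dimmest, again under the cutoff. By the same measure 1 of 27 Wnt genes passed 1 log2 unit, the ubiquitin ligase Znrf3 (1948, 985 and 1821), and 2 of 16 Notch genes, Aph1a and the Notch target Hey2 (280, 984 and 485); Znrf3 and Hey2 were named after their values were seen.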

How the data were processed

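Intensity values, 1 for each probe set on each array, are those of the authors' deposited table; per the labels' protocols, biotin-labelled cRNA was made by standard Affymetrix methods. The summary software and any normalization are "not given in the sources used here". With 2% of values trimmed at each end, the mean signal was 1000 on every array, so the deposited values share a common scale. Log2 was taken without a pseudocount. Of 31099 probe sets, 57 were controls and 20826 had 1 gene symbol in the platform annotation. The detection test was limma (version 3.58.1, R 4.3.3; lmFit and eBayes, one-sided) on log2 signal minus the array's cutoff, adjusted over 14217 genes, and was tested on simulated data. The cutoff itself was taken as known. Each array is 1 sample, so differences between arrays have no test; arrays were centred on their median gene. With 3 arrays, precision is limited by their number.

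The members, the lists of markers, other pathway genes and other-tissue genes, and the tests were chosen with earlier results of these data known. The text names all measured members and, of each list of other pathway genes, the 3 detected genes with the brightest probe sets and the 2 genes with the dimmest. Alternatives were other cutoffs, normalizations, a pseudocount, a filter, the mean over probe sets and leaving out each array. Motifs were sought in RefSeq's GRCr8 promoter table.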

Additional observations from a re-analysis of the deposited data

How the results depend on the processing

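No paired analysis was possible because there is 1 group. With 1 array left out, 24 to 26 members were called: 25, 25 and 24 of the 26 detected without replicates 1, 2 and 3, plus Id3 without replicate 1. The count was 26 under quantile normalization, a common 75th percentile or a pseudocount of 16, 27 under the 90th percentile cutoff, without Myh1 in the cutoff list or with only genes above the cutoff on an array tested, and 20 with the mean over probe sets (19 of the 26, plus Id3; 46.6% of all genes). Of all genes, 50.7%, 48.4% and 48.3% were called without replicates 1, 2 and 3. Under quantile normalization, the common 75th percentile and the pseudocount, 51.5%, 51.6% and 51.9% were called. At the 90th percentile cutoff 63.1% of all genes were called, and without Myh1 54.4%. Of the 8688 genes above the cutoff on an array, 87.3% were called. The TrpnX control cutoff called 78.3% of all genes and gave 38 members, 5 of them in the Notch pathway, and 31 further TGF-beta and BMP, 43 Wnt and 25 Notch genes. The 99th percentile cutoff called 7.55% of all genes and gave 2 members (1 TGF-beta and BMP, 1 Wnt and 0 Notch) and 1, 1 and 2 genes of these further lists. Leaving out 1 array gave 12 to 17, 18 to 20 and 11 to 12 genes of the further lists. The 4 members past 1 log2 unit between arrays became 0 to 3 with 1 array left out, 8 with the mean over probe sets and 4 under each other scaling. The median SD of the 27 members above the cutoff, 0.20 log2 units, ran from 0.14 to 0.27 over the alternatives.

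The side of the cutoff changed for the following genes (log2 signal minus the cutoff), in each case because the cutoff or the probe sets used moved. At the 90th percentile cutoff these were Tgfb1 (0.087), Tgfb2 (0.57), Tgfbr3 (0.45), Sfrp1 (0.61) and Hey1 (0.65). At the TrpnX cutoff they were Tgfb1 (1.89), Tgfb2 (2.38), Tgfb3 (1.66), Bmp2 (1.12), Bmp6 (1.51), Tgfbr3 (2.25), Dkk3 (1.27), Sfrp1 (2.41), Axin2 (0.88), Notch2 (0.94) and Hey1 (2.46). With the mean over probe sets they were Bmpr2 (-1.16), Smad3 (-0.25) and Apc (-0.46). At the 99th percentile cutoff they were Bmp7 (-0.21), Bmpr1a (-0.86), Bmpr2 (-1.55), Acvr1 (-2.04), Acvr2a (-2.23), Smad2 (-1.54), Smad3 (-0.62), Smad4 (-0.18), Smad5 (-1.06), Smad7 (-1.09), Id1 (-0.50), Id3 (-1.52), Ccn1 (-0.0033), Fzd1 (-2.41), Lrp6 (-2.06), Gsk3b (-2.12), Apc (-0.76), Tcf7l2 (-0.20), Jag1 (-1.23) and Notch1 (-2.13). Id3 was called under 6 alternatives, Fzd1 lost its call without any 1 array, and Acvr1 without replicate 3. With the mean over probe sets Tgfbr1 (adjusted p = 0.0676), Acvr1 (0.27), Smad7 (0.209) and Tcf7l2 (0.0566) also lost theirs by limma, while staying above the cutoff. Beside the genes under the 99th percentile cutoff, Bmp4, Tgfbr1, Smad1, Ccn2 and Hes1 lost their calls there. What the cutoff can show limits every gene not called.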
